A study of Danio rerio with 11 samples.

Results

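Erythroid genes, which red blood cells use to make and carry haemoglobin, were followed in whole-embryo RNA-seq of single zebrafish. The rows were chosen by name: alas2, drl, epor, gata1a, hbae3 and slc4a1a, with every row whose name starts with hbae or hbbe, which added hbae1, hbbe1.1, hbbe2 and hbbe3. This gave 10 of the 14473 rows of the table, and all 10 passed the filter on low counts, with at least 30 counts in every embryo. The embryos came from an incross of carriers of the rfx4 allele uw8013, per the series design, and were raised at 29 °C to about 25 hours post fertilisation (hpf) without treatment. They were sorted by phenotype into 6 mutants, with the genotype label rfx4 mutant (replicates 1, 3, 4, 5, 6 and 7), and 5 siblings, with the genotype label control (replicates 2, 3, 4, 7 and 8). The labels do not say whether a sibling was wild type or heterozygous, and their growth protocol names zic2 carriers as parents, so the mutation rests on the design text and the genotype label. The comparison asks whether embryos with the mutant phenotype differ in red cell transcripts, and the single embryos also show how these transcripts vary together.

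Primitive red cells of the zebrafish form from lateral mesoderm, and the transcription factor Gata1 switches on their gene programme. Embryonic haemoglobin joins α chains, encoded by the hbae genes, with β chains, encoded by the hbbe genes, and each chain holds a haem group. Haem synthesis in red cells begins with the enzyme Alas2, and erythropoietin, acting through its receptor, supports red cell survival.

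Total counts ran from 16238368 to 18296024 in the mutants and from 17133737 to 21104811 in the siblings. Each library was 1 embryo, so the spread within a group includes variation between animals. Mutant 6 was the embryo most often at an extreme over the whole transcriptome. It was the lowest of the 11 embryos for 18.1% of the 12301 tested genes and the highest for 16.5%, whereas in the other 10 embryos the share of lowest genes ran from 5.37% (mutant 5) to 13.4% (sibling 3). Genes with a count numbered 13449 in mutant 6, against 13345 to 13445 in the other 10 embryos, and the 50 most abundant genes took 21.1% of its counts, against 19.0% to 21.6%. Values without this embryo are given for the range of the 10 fold changes and for some single members. They are also given for the correlations, the likeness ranking and each gene list as a whole. Fold changes of single list genes other than alas2, drl and epor are with all embryos. Counts of genes for which an embryo was lowest or highest were made on log2 CPM (counts per 1000000 with TMM scaling).

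None of the 10 erythroid genes passed the test between mutants and siblings, and the levels of the 2 groups overlapped for all 10. The edgeR quasi-likelihood test called 0 of them at an adjusted p under 0.05, beside 0% of all 12301 tested genes. At an unadjusted p under 0.05 it again held 0 of the 10, beside 6.85% of all genes, and 0 of the 10 had groups without overlap, beside 0.943% of all genes. DESeq2 called 0 of the 10, beside 0.358% of all genes. Without mutant 6, edgeR called 0 of the 10, beside 0.196% of all genes. Adjusted p values ran from 0.932 (hbbe2) to 0.998 (hbae1) with all embryos by edgeR. The intervals were wide: for hbae3 the log2 fold change of mutant over sibling was −0.06 ± 0.28 (SE), with a 95% interval from −0.69 to 0.57. Differences within that interval, in either direction, were not excluded with these embryos. Without mutant 6 the fitted log2 fold changes of the 10 genes ran from 0.028 (hbbe2) to 0.28 (slc4a1a), with edgeR adjusted p values from 0.852 to 0.977, and hbae3 stood at 0.11 ± 0.18 (SE). In whole embryos, fewer red cells and less RNA per red cell cannot be told apart.

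**Figure D1:**
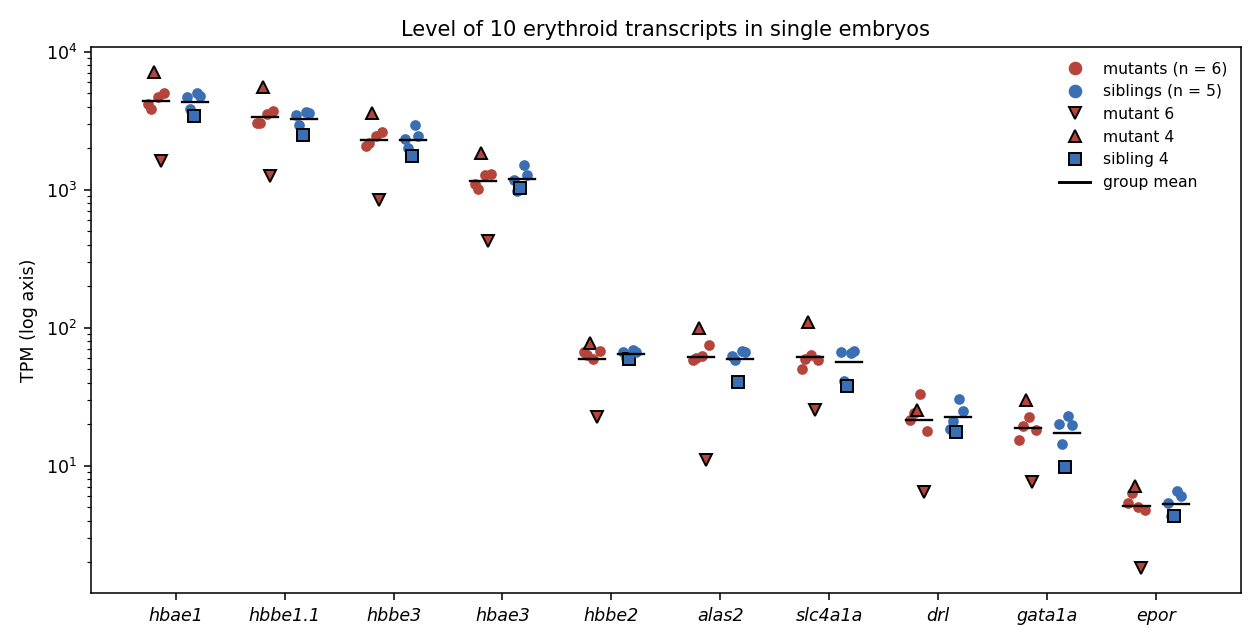
Level of each of the 10 genes in TPM (log axis), with 1 point per embryo, mutants left of siblings for each gene and a bar at the group mean. Mutant 6 is the lowest point for every gene, and mutant 4 is the highest for 9 of them.

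The globins other than hbbe2 were the most abundant of the 10 transcripts. TPM (transcripts per 1000000) is scaled for gene length, so levels of different genes can be set side by side on it. Over all 11 embryos hbae1 averaged 4382 ± 1330 TPM (SD, n = 11), hbbe1.1 3300 TPM, hbbe3 2294 TPM and hbae3 1175 TPM, and this order held in 11 of 11 embryos. The remaining β chain gene, hbbe2, was 19.1-fold below hbae3, at 61.6 TPM.

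The α-globin gene hbae3 had 424 TPM in the lowest mutant (mutant 6), a median of 1197 TPM over the 6 mutants and 1829 TPM in the highest (mutant 4). In siblings 2, 3, 4, 7 and 8 it had 1178, 972, 1023, 1511 and 1280 TPM. Mutants 1, 3, 5 and 7 lay within the sibling range, mutant 6 below it and mutant 4 above it. The same 2 mutants bracketed all siblings for hbae1, at 1619 TPM (mutant 6), a median of 4424 TPM and 7102 TPM (mutant 4) in mutants, against 4677, 3839, 3437, 5038 and 4749 TPM in siblings 2, 3, 4, 7 and 8. The group means of hbae1 were nearly equal, at 4410 ± 1780 TPM in mutants (SD, n = 6) and 4348 ± 677 TPM in siblings (SD, n = 5). Its log2 fold change was 0.0017 ± 0.28 (SE) by edgeR, with an adjusted p of 0.998.

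The β-globin genes followed the same embryos. Expression of hbbe1.1 was 1246 TPM in mutant 6, 3310 TPM at the median of the mutants and 5510 TPM in mutant 4, against 2493 to 3666 TPM in siblings. For hbbe3 the range was 837 to 3594 TPM in mutants and 1757 to 2953 TPM in siblings. The minor chain gene hbbe2 varied least. It had 22.6 TPM in mutant 6 and 59.8 to 77.1 TPM in the other mutants, against 59.7 to 68.7 TPM in siblings. Without mutant 6, the SD of hbbe2 on the log2 CPM scale was 0.19 in mutants and 0.10 in siblings, whereas for the 4 other globin rows it was 0.37 to 0.40 in mutants and 0.23 to 0.30 in siblings.

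The 5 globin rows together summed to 11268 ± 4519 TPM in mutants (SD, n = 6) and 11143 ± 1805 TPM in siblings (SD, n = 5). Mutant 6 held 4149 TPM and mutant 4 held 18112 TPM, whereas the siblings ran from 8770 to 13237 TPM. As a share of the summed TPM of an embryo this was 0.415% in mutant 6, 1.81% in mutant 4 and 0.877% to 1.32% in siblings. The coefficient of variation was 40.1% in mutants and 16.2% in siblings, and 25.3% in the 5 mutants without mutant 6. The difference in spread was not tested.

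The make-up of the globin pool varied less than its size. Over the 11 embryos the coefficient of variation was 30.3% for the sum and 12.7% for the share of hbbe2. For the other shares it ran from 1.58% (hbae1) to 5.61% (hbae3). The share of hbbe2 ran from 0.426% (mutant 4) to 0.680% (sibling 4). That of hbae3 ran from 9.87% to 11.7% and that of hbbe3 from 19.7% to 22.3%. The gene hbae1 supplied 38.0% to 40.0% of the pool in mutants and 38.1% to 39.8% in siblings, and hbbe1.1 supplied 29.0% to 30.4% in mutants and 27.7% to 30.0% in siblings. In mutant 6 the shares were 39.0% for hbae1, 30.0% for hbbe1.1, 20.2% for hbbe3, 10.2% for hbae3 and 0.546% for hbbe2, all within the range of the other embryos. The summed α chains stood at 0.98 ± 0.03 of the summed β chains in mutants (SD, n = 6) and at 0.99 ± 0.03 in siblings (SD, n = 5). That ratio depends on which rows are counted. With 2 further rows that RefSeq (assembly GRCz12tu) gives as synonyms, si:busm1-118j2.5 for hbbe1.1 and zgc:163057 for hbae4, it was 0.76 ± 0.02 in mutants and 0.77 ± 0.03 in siblings. RefSeq lists 3 copies each of the hbae1 and hbbe1 genes and the table has 1 row named for each, so the split of reads among copies is uncertain. In that assembly hbae1, hbbe1.1 and hbae3 lie in 1 cluster and hbbe2 and hbbe3 in another. The first cluster held 78.1% to 79.7% of the pool of 5 globin rows in mutants and 77.2% to 79.5% in siblings. All shares given here leave out the 2 synonym rows. With these rows the sum was 12933 ± 5195 TPM in mutants (SD, n = 6) and 12752 ± 2018 TPM in siblings (SD, n = 5), so each share would shift.

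**Figure D2:**
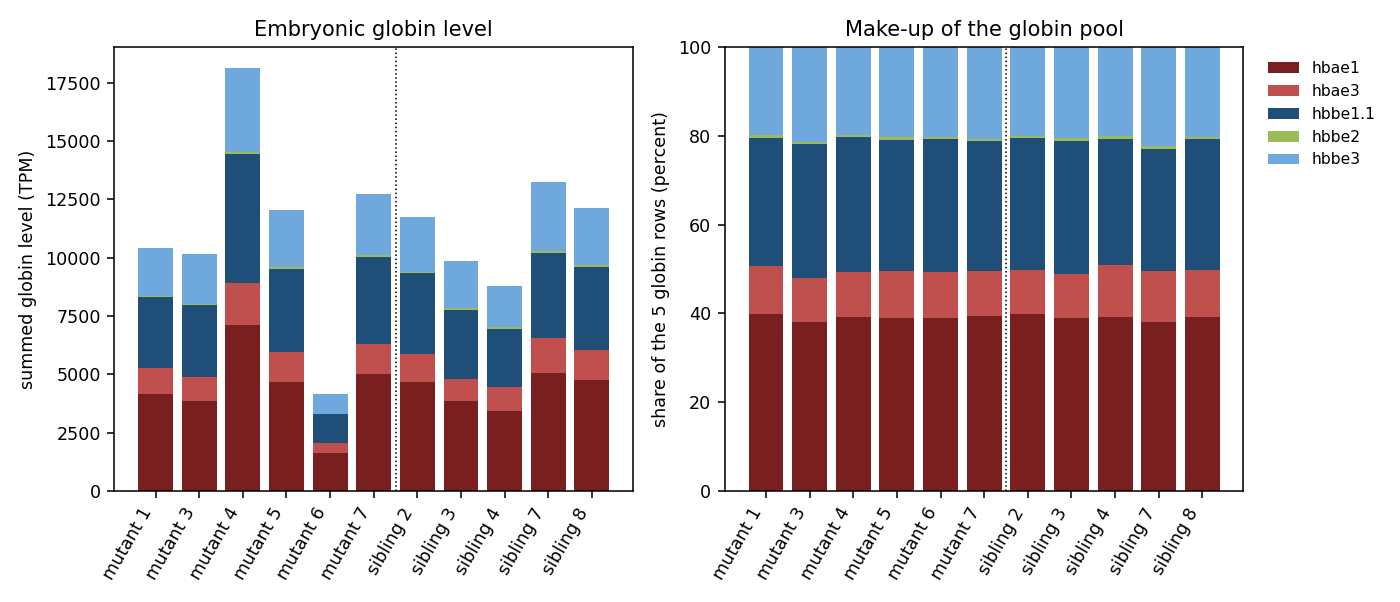
Summed level of the 5 globin rows in TPM (left) and the share of each row in that sum in percent (right), 1 bar per embryo, with the mutants left of the dotted line and the siblings right of it. The sum runs from 4149 TPM in mutant 6 to 18112 TPM in mutant 4, while hbae1 stays between 38.0% and 40.0% of the pool.

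The first enzyme of red cell haem synthesis showed the deepest low value. Expression of alas2 was 10.98 TPM in mutant 6, 61.5 TPM at the median of the mutants and 98.7 TPM in mutant 4, against 62.8, 57.9, 40.7, 68.3 and 66.8 TPM in siblings 2, 3, 4, 7 and 8. Mutant 6 was at 27.0% of the next lowest embryo, sibling 4, and mutant 4 lay above all siblings. The group means, 61.0 ± 28.7 TPM in mutants (SD, n = 6) and 59.3 ± 11.1 TPM in siblings (SD, n = 5), differed by less than the spread within either group. For alas2, edgeR gave a log2 fold change of 0.02 ± 0.38 (SE, adjusted p = 0.991) with all embryos and of 0.24 ± 0.18 (SE, adjusted p = 0.852) without mutant 6. Set against the globins, alas2 stood at 2.65 TPM per 1000 TPM of globin in mutant 6 and at 5.16 to 5.98 in the other mutants, against 4.64 to 5.88 in siblings. In mutant 6 alas2 was thus low beyond the low level of the globins.

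The remaining enzymes of haem synthesis showed the same embryo as lowest. Of the 10 listed genes 0 were called in either direction by edgeR, with a median log2 fold change of 0.03 beside 0.0009 over all tested genes. Those of lowest p were hmbsa, which encodes hydroxymethylbilane synthase (0.12 ± 0.16 SE), and alas1, the housekeeping relative of alas2 (0.05 ± 0.11 SE), with edgeR adjusted p values of 0.914 and 0.949. Mutant 6 was the lowest of 11 embryos for 8 of the 9 genes other than alas2, beside 18.1% of all tested genes. The coproporphyrinogen oxidase gene cpox had 24.8 TPM in mutant 6 and 58.3 to 86.8 TPM in the other mutants, against 46.6 to 70.7 TPM in siblings. The uroporphyrinogen decarboxylase gene urod had 56.7 TPM in mutant 6 and 105 to 147 TPM in the other mutants, against 80.7 to 132 TPM in siblings. The exception was alas1, at 30.3 TPM in mutant 6 and 29.6 to 37.6 TPM in the other mutants, against 23.6 to 35.0 TPM in siblings. For fech, the ferrochelatase gene that closes the pathway, mutant 6 (9.85 TPM) was close to mutant 5 (10.4 TPM).

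**Figure D3:**
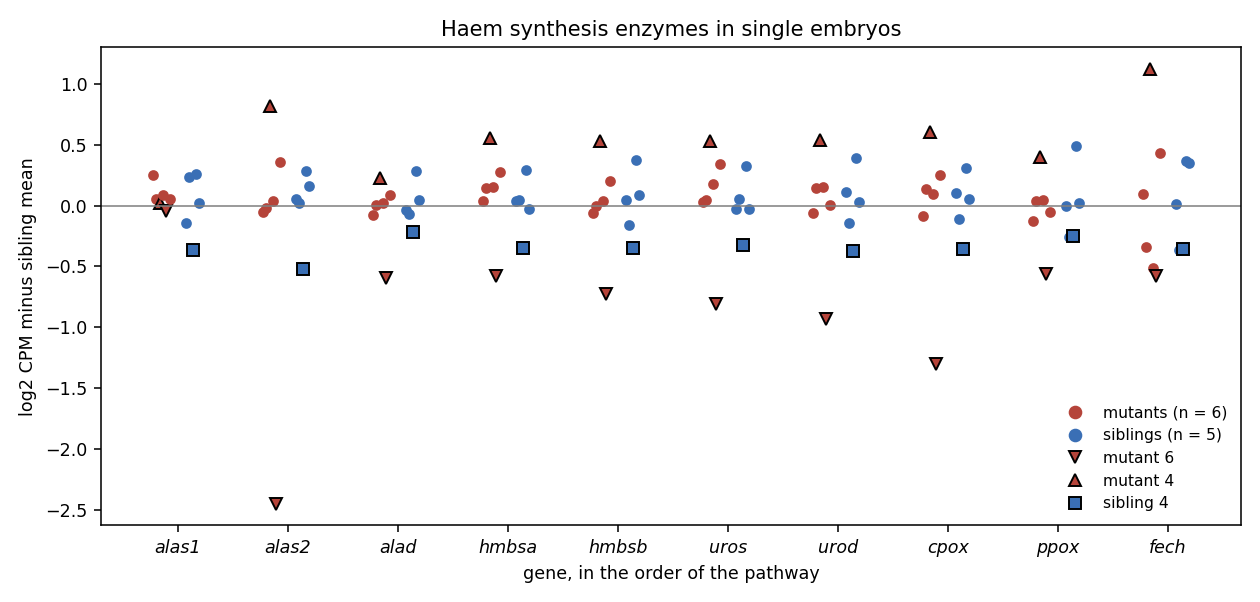
Difference of each embryo from the sibling mean, in log2 CPM, for 10 genes of haem synthesis in pathway order, mutants left of siblings. Mutant 6 is the lowest embryo for 9 of the 10 genes, alas2 included, and lies among the other embryos for alas1.

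The receptor gene epor, the least abundant of the 10, had 1.8 TPM in mutant 6, 5.205 TPM at the median of the mutants and 7.18 TPM in mutant 4, against 5.35, 4.32, 4.31, 6.51 and 6.08 TPM in siblings 2, 3, 4, 7 and 8. Mutants 1, 3, 5 and 7 lay within the sibling range, mutant 6 below it and mutant 4 above it. Its counts ran from 30 to 125, so its values carry more counting error than those of the globins. The log2 fold change was −0.09 ± 0.27 (SE, edgeR adjusted p = 0.959), and 0.084 ± 0.17 (SE) without mutant 6. Of the 10 tested genes of the cytokine receptor pathway 0 were called, with a median of 0.10. Those of lowest p were jak2a, a kinase that carries the receptor signal (0.15 ± 0.08 SE), and socs3b, a feedback inhibitor (0.19 ± 0.11 SE), with edgeR adjusted p values of 0.745 and 0.793. Mutant 6 was lowest for epor and for 0 of the 9 other genes of that list, beside 18.1% of all tested genes. The signal transducer gene stat5.1, for example, had 18.7 TPM in mutant 6, within the 6.74 to 22.6 TPM of the other 10 embryos.

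The transcription factor gene gata1a had 7.67 TPM in mutant 6, 18.8 TPM at the median of the mutants and 30.0 TPM in mutant 4, against 20.02, 14.3, 9.79, 22.8 and 19.7 TPM in siblings 2, 3, 4, 7 and 8. Here sibling 4 was low too, so mutant 6 was at 78.3% of the next lowest embryo. The log2 fold change was 0.10 ± 0.30 (SE, edgeR adjusted p = 0.959). The gene drl, which encodes the zinc finger protein Draculin of early blood mesoderm, had 6.47 TPM in mutant 6, a median of 22.6 TPM and 32.8 TPM in mutant 5, against 18.4, 21.2, 17.6, 30.3 and 24.9 TPM in siblings 2, 3, 4, 7 and 8. It was the 1 gene of the 10 whose highest embryo was not mutant 4. Its log2 fold change was −0.12 ± 0.30 (SE, edgeR adjusted p = 0.953), and 0.073 ± 0.18 (SE) without mutant 6.

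Other blood transcription factors were less uniform. Of the 13 tested genes of that list, which includes gata1a and drl, 0 were called, 7 had higher and 6 lower fitted values and the median was 0.10. Over all tested genes 6175 had higher and 6126 lower fitted values. Those of lowest p were gata2a (0.21 ± 0.13 SE, edgeR adjusted p = 0.801) and runx1 (0.23 ± 0.24 SE, adjusted p = 0.881), both known for roles in blood stem and progenitor cells. Mutant 6 was lowest for 4 of the 11 other genes and highest for 2, beside 18.1% and 16.5% of all tested genes. Among the 4, gfi1b, which encodes a transcriptional repressor of blood development, had 8.10 TPM in mutant 6 and 13.6 to 24.8 TPM in the other 10 embryos. In contrast gata2a had 15.4 TPM in mutant 6, above the 7.89 to 14.7 TPM of the others.

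The anion exchanger gene slc4a1a, which encodes band 3 of the red cell membrane, had 25.5 TPM in mutant 6, 59.1 TPM at the median of the mutants and 111 TPM in mutant 4, against 67.1, 41.0, 37.6, 66.0 and 68.1 TPM in siblings 2, 3, 4, 7 and 8. The siblings fell into a lower pair (3 and 4) and a higher trio. The log2 fold change was 0.12 ± 0.30 (SE, edgeR adjusted p = 0.952). Per 1000 TPM of globin, slc4a1a in mutant 6 stood at 6.15, against 4.62 to 6.12 in the other mutants and 4.17 to 5.71 in siblings, so unlike alas2 it was not reduced relative to globin. Of the 7 tested genes of the membrane and skeleton list, which includes slc4a1a, 0 were called (median 0.02). Those of lowest p were dmtn, which encodes the actin-bundling protein dematin (0.11 ± 0.09 SE, edgeR adjusted p = 0.852), and rhag, an ammonium channel gene (−0.16 ± 0.16 SE, adjusted p = 0.876). Mutant 6 was lowest for 5 of the 6 other genes on log2 CPM, but for 3 of the 6 on TPM, where rhag (18.9 TPM in mutant 6, against at least 18.6 TPM in the others) and dmtn (11.9 TPM, against at least 11.8 TPM) were not lowest. Over all tested genes mutant 6 was lowest for 18.1% on log2 CPM and for 14.4% on TPM. Among the genes lowest on both scales was epb41b, which encodes the skeletal protein 4.1, at 9.42 TPM against 13.8 to 33.8 TPM in the other 10 embryos.

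**Figure D4:**
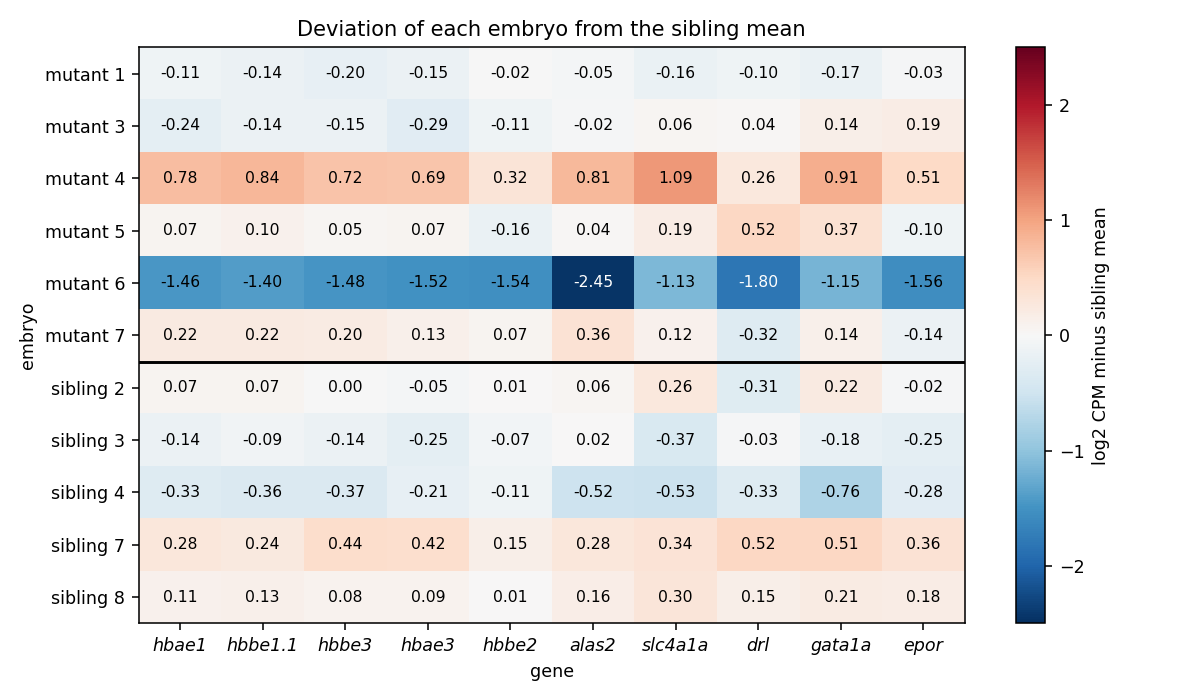
Difference of each embryo (rows, mutants above the line and siblings below it) from the sibling mean for each of the 10 genes (columns), in log2 CPM. Mutant 6 is below the sibling mean for every gene, by 2.45 for alas2, mutant 4 is above it for every gene, and sibling 4 is below it for every gene.

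Some embryos thus kept to 1 side over the 10 genes, while others were split. Mutant 6 was the lowest embryo for 10 of 10 genes, beside 18.1% of all tested genes, and lay more than 1 log2 unit below the median of the other mutants for 10 of 10, beside 3.11% of all genes. Its deviation ran from −1.24 (slc4a1a) to −2.49 (alas2) log2 units, with a median of −1.53. Among 12301 genes ranked by this deviation, alas2 was at place 17, drl at place 31 and hbae3 at place 55 from the lowest. Mutant 4 was the highest embryo for 9 of 10 genes, beside 8.64% of all genes. Siblings 3, 4, 7 and 8 also kept mostly to 1 side of the other siblings. Sibling 4 was below the median of the other siblings for 10 of 10 genes (−0.98 to −0.12 log2 units), beside 49.6% of all genes, and sibling 3 was below it for 9 of 10 (−0.65 to 0.05), beside 50.2%. Sibling 7 was above it for 10 of 10 (0.18 to 0.68), beside 50.8%, and sibling 8 for 10 of 10 (0.04 to 0.36), beside 49.9%. Sibling 2 was split, below it for 2 of 10 (−0.37 to 0.30). Mutants 1, 3, 5 and 7 were below the median of the other mutants for 8, 7, 2 and 3 of 10 genes. In sibling 2 and these mutants the median deviation over all tested genes lay between −0.023 and 0.0083 log2 units. Genes that vary together are not independent counts, so these are 10 views of the same embryos.

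The co-variation was measured over the 11 embryos as the correlation of log2 CPM for the 15 pairs of alas2, drl, epor, hbae3, gata1a and slc4a1a. Pearson's r ran from 0.76 (drl with slc4a1a) to 0.97 (gata1a with slc4a1a), with a median of 0.88. By permutation test, two-sided with 100000 resamples, 15 of 15 pairs passed at an adjusted p under 0.05 over the 15 pairs by r, and 12 of 15 by Spearman's rho. The values of a pair come from the same embryo, library and scaling. The share of pairs passing among other genes was not computed. Among genes with a mean count of at least 100, r above 0.8 was found for 4.16% with alas2, 2.53% with hbae3 and 3.37% with epor. Of the other members in that set it was found for 8 of 8, 8 of 8 and 9 of 9. Without mutant 6 the shares were 0.715%, 0.505% and 0.410%, and the members 7 of 8, 7 of 8 and 2 of 9.

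Globin and haem synthesis varied most closely among the 3 pairs of globin, haem and receptor genes. For alas2 with hbae3, r was 0.95 (permutation p = 0.00016, adjusted p = 0.0003) and rho 0.91 (permutation p = 0.00029, adjusted p = 0.00217). By rank, the receptor gene followed alas2 and hbae3 less closely than it followed gata1a (rho = 0.85) and slc4a1a (rho = 0.86). Without mutant 6, rho was 0.81 for epor with gata1a and 0.82 for epor with slc4a1a. For alas2 with epor, r was 0.95 (permutation p = 0.00074, adjusted p = 0.00123) and rho 0.65 (permutation p = 0.0337, adjusted p = 0.0421). For epor with hbae3, r was 0.93 (permutation p = 0.00102, adjusted p = 0.00153) and rho 0.62 (permutation p = 0.0487, adjusted p = 0.0561). The membrane and transcription factor genes formed the closest pair: for gata1a with slc4a1a, r was 0.97 (permutation p = 1e-05, the smallest that the resamples can give, adjusted p = 0.00015) and rho 0.95 (permutation p = 6e-05, adjusted p = 0.0009).

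Fewer pairs passed without the extreme embryos. With mutant 6 left out, 10 of 15 pairs passed by r, and the 5 pairs that did not were those with drl. The value for alas2 with drl was then 0.41 (permutation p = 0.248), against 0.88 with all embryos. Still without mutant 6, alas2 with hbae3 had r of 0.84 (permutation test, adjusted p = 0.0054) and rho of 0.88. For alas2 with epor r was 0.73 (adjusted p = 0.0213) and rho 0.54. For epor with hbae3 r was 0.74 (adjusted p = 0.0213) and rho 0.49. By rho 9 of 15 pairs passed without mutant 6, alas2 with hbae3 among them, but neither of these pairs with epor. Leaving out the 2 embryos farthest from the median of the first gene, in most pairs mutants 4 and 6, left 4 of 15 pairs. Without mutants 4 and 6 these were alas2 with gata1a (r = 0.84, permutation test, adjusted p = 0.0435) and alas2 with slc4a1a (0.77, adjusted p = 0.0435). The pair gata1a with slc4a1a passed without mutant 6 and sibling 4 (0.95, adjusted p = 0.00285). The pair drl with epor passed without mutants 5 and 6 (0.82, adjusted p = 0.0435). Both of these last pairs kept mutant 4. Without mutant 6 alone, drl with epor was at 0.58 (adjusted p = 0.102). The globin, haem and receptor pairs no longer passed without mutants 4 and 6: alas2 with hbae3 was at 0.67 (adjusted p = 0.0801), epor with hbae3 at 0.53 (adjusted p = 0.162) and alas2 with epor at 0.51 (adjusted p = 0.172). Leaving out the extreme embryos also narrows the range over which r is taken, and which embryos are left out is set by the data. As deviations from the group means, 15 of 15 pairs passed (r from 0.78 to 0.97), with resampling within groups. Within the 6 mutants r ran from 0.83 to 0.99. The deviations and the values within the mutants both keep mutants 4 and 6, so they do not show r without these embryos. The 5 siblings are too few for an r of their own.

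**Figure D5:**
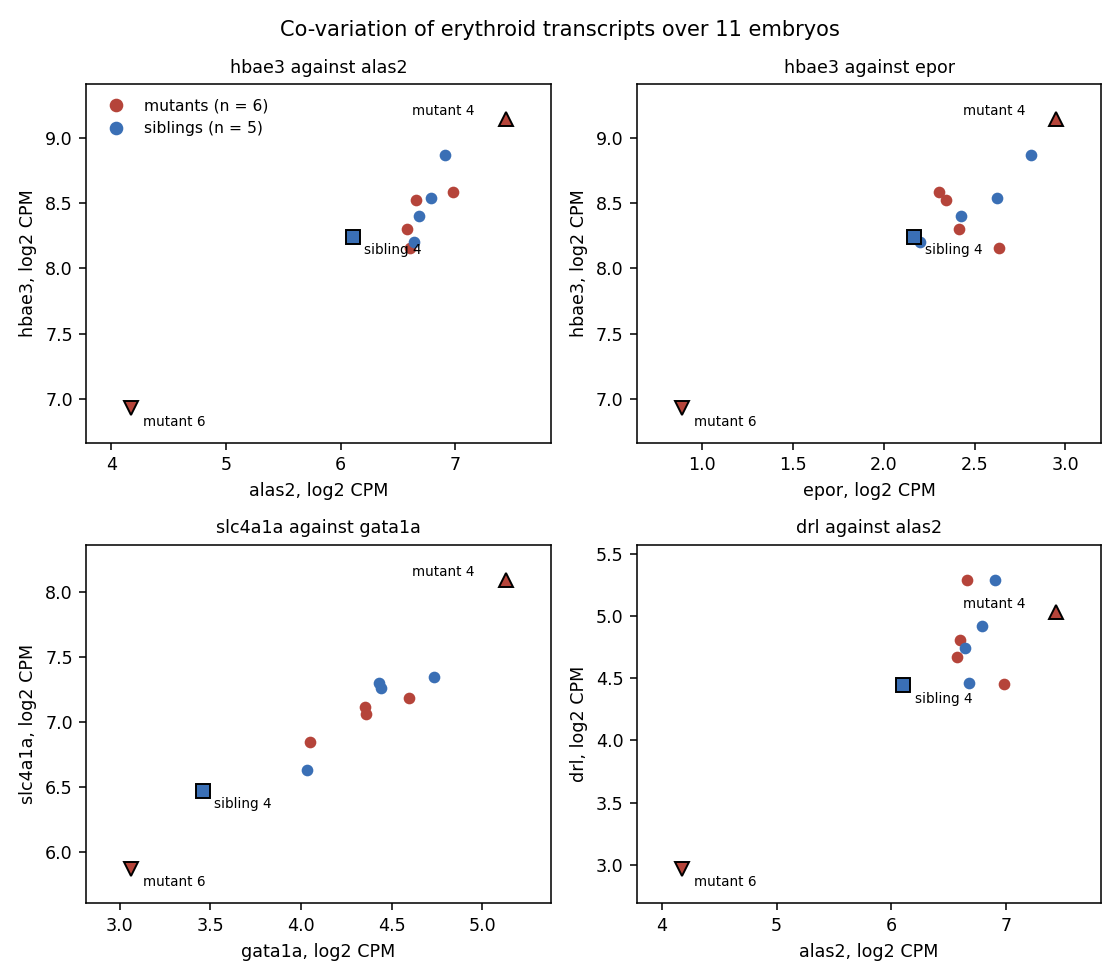
Log2 CPM of 4 pairs of genes, 1 point per embryo, with mutants, siblings, mutant 6, mutant 4 and sibling 4 marked. The point of mutant 6 is at the lower left in each panel, with sibling 4 nearest to it for gata1a with slc4a1a. Without mutant 6 r is 0.94 for gata1a with slc4a1a, 0.84 for alas2 with hbae3 and 0.41 for alas2 with drl.

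Among the globins themselves the 10 pairs had r from 0.93 to 1.00 over 11 embryos and from 0.87 to 0.99 without mutant 6, given here as a description. The lowest of these values belonged to pairs with hbbe2.

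The genes whose pattern was most like that of 3 of the members were ranked by Pearson's r of log2 CPM over the 11 embryos, among 9505 genes with a mean count of at least 100, as a description. For alas2 they were cpox (r = 0.98), adrb3a, a β-adrenergic receptor gene (0.98), hbbe2 (0.98), hbae1 (0.97) and hbbe1.1 (0.97). For hbae3 they were hbbe3 (0.99), hbae1 (0.99), hbbe1.1 (0.98), nmt1b, an N-myristoyltransferase gene (0.98), and si:busm1-118j2.5 (0.97). For epor they were slc25a37, which encodes the mitochondrial iron carrier mitoferrin (0.97), pim1, a serine/threonine kinase gene (0.97), adrb3a (0.96), nmt1b (0.96) and cpox (0.95). Without mutant 6 the 5 genes most like alas2 were hbbe1.1 (0.96), epb41b (0.96), cpox (0.95), si:busm1-118j2.5 (0.94) and hbae1 (0.94), with 3 of the 5 shared with the ranking over 11 embryos. For hbae3 they were hbbe3 (0.96), hbae1 (0.96), nmt1b (0.93), hbbe1.1 (0.93) and tmem167b (0.92), with 4 of the 5 shared. For epor they were mfsd2ab (0.91), ppox (0.90), slc25a37 (0.89), nmt1b (0.89) and si:ch211-212o1.2 (0.89), with 2 of the 5 shared. An r above 0.9 with alas2 was found for 1.35% of the other genes and for 5 of the 8 other members among them. Without mutant 6 it was found for 0.179% and for 3 of 8. With hbae3 it was found for 0.421% and for 6 of 8, and without mutant 6 for 0.105% and for 3 of 8. With epor it was found for 0.663% and for 7 of 9, and without mutant 6 for 0.021% and for 0 of 9. The iron carrier gene slc25a37 had 1.57 TPM in mutant 6 and 4.06 to 5.37 TPM in the other mutants, against 2.93 to 4.47 TPM in siblings.

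Iron supply and red cell enzymes were counted in the same way. Of the 12 tested iron genes 0 were called (median 0.03). Those of lowest p were the transferrin receptor gene tfr1b (0.18 ± 0.06 SE, edgeR adjusted p = 0.622) and the ferroportin gene slc40a1 (−0.18 ± 0.11 SE, adjusted p = 0.784). Mutant 6 was lowest for 5 of the 12 on log2 CPM and for 4 on TPM, beside 18.1% and 14.4% of all tested genes. The erythroid transferrin receptor gene tfr1a was not among them, at 20.6 TPM in mutant 6 within 17.9 to 53.1 TPM in the other 10 embryos. Of the 12 tested red cell enzyme genes 0 were called (median −0.08). Those of lowest p were nt5c3a, a nucleotidase gene (−0.23 ± 0.11 SE, edgeR adjusted p = 0.745), and the glutathione peroxidase gene gpx1b (0.29 ± 0.18 SE, adjusted p = 0.796). Mutant 6 was lowest for 3 of the 12 on log2 CPM and for 2 on TPM. One of these was cahz, the red cell carbonic anhydrase gene, at 37.7 TPM in mutant 6, where sibling 4 with 41.2 TPM was close. The enzyme list as a whole was not low in mutant 6. Its median deviation from the median of the other mutants was 0.03 log2 units, beside 0.0021 over all tested genes.

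Markers of other cell types were counted beside these. Over all tested genes mutant 6 was lowest for 18.1% and highest for 16.5%, the shares to set beside the counts that follow. Among 12 endothelial markers mutant 6 was lowest for 1 (aplnra) and highest for 2, and their summed level was 183 to 225 TPM in mutants, with 196 TPM in mutant 6, against 163 to 188 TPM in siblings. Of these markers 0 were called, and 12 of 12 had higher fitted values (median 0.17), beside 6175 of the 12301 tested genes. At an unadjusted edgeR p under 0.05 there were 4 of the 12, all higher, beside 6.85% of all genes. Those of lowest p were erg (0.37 ± 0.10 SE, edgeR adjusted p = 0.528) and etv2 (0.23 ± 0.08 SE, adjusted p = 0.614). Among 14 myeloid markers mutant 6 was lowest for 3 and highest for 1, with a summed level of 189 to 254 TPM in mutants, the lower bound in mutant 6, against 159 to 291 TPM in siblings. Low in mutant 6 were lyz, a lysozyme gene, at 16.9 TPM against 21.1 to 61.4 TPM in the other 10 embryos, cebpb, a transcription factor gene, at 20.25 TPM against 31.15 to 44.65 TPM, and lect2l at 2.09 TPM against 2.53 to 10.4 TPM. In contrast csf1ra had 6.31 TPM in mutant 6, above the 2.66 to 6.07 TPM of the other embryos. Over the 14 markers the median deviation of mutant 6 from the median of the other mutants was −0.26 log2 units, beside 0.0021 over all tested genes. In all 2 of the 14 myeloid markers, lyz and mpeg1, lay more than 1 log2 unit below the median of the other mutants, beside 3.11% of all genes. Of these markers 0 were called (median −0.19), with cebpa (−0.20 ± 0.11 SE, edgeR adjusted p = 0.756) and coro1a (−0.26 ± 0.15 SE, adjusted p = 0.779) lowest in p. The 2 tested thrombocyte markers, gp1bb (0.30 ± 0.29 SE, edgeR adjusted p = 0.871) and itgb3b (0.04 ± 0.29 SE, adjusted p = 0.977), were not called, and mutant 6 was lowest for 0 of them. No marker of these 3 lists in the table was at 0 in every embryo, and 1 thrombocyte marker was at 0 in some. Without mutant 6, edgeR called 0 genes in each of the 9 lists. Their median log2 fold changes were then 0.17 for haem synthesis, 0.073 for iron supply, 0.11 for transcription factors, 0.083 for the membrane, 0.098 for the cytokine pathway, −0.084 for red cell enzymes, −0.20 for myeloid cells, 0.21 for thrombocytes and 0.17 for endothelial cells, beside 0.00039 over all tested genes. The part of other cell types in the low erythroid values of mutant 6 was not tested.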

How the data were processed

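The authors deposited estimated counts and TPM values for 14473 genes in each of the 11 embryos. The submitters' processing notes name Bowtie 1.1.1, RSEM 1.2.18, CASAVA 1.8.2 and build Zv9, with roles and annotation not given in the sources used here. The deposited counts are whole numbers and were taken as rounded RSEM estimates. The deposited TPM values sum to 1000000 per embryo, and they gave the levels and shares. Per the labels' protocols, libraries used the TruSeq v2 kit, which marks no strand.

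Counts were tested with edgeR 4.0.16 in R 4.3.3 (TMM, filterByExpr, quasi-likelihood test, Benjamini-Hochberg adjustment over 12301 genes). SE came from the F statistic and 95% intervals from 9 residual degrees of freedom. CPM used TMM library sizes, and log2 CPM a prior count of 1. DESeq2 1.42.0 and limma 3.58.1 served as alternatives, with limma on log2 TPM with pseudocounts of 1 and 0.1. Scripts were tested on simulated data. Across 25 library pairs within groups, chi-square divided by its degrees of freedom was at least 7.79, so no library was merged. Members and gene lists were chosen with earlier results of these data known. Named genes were all members, the 2 of lowest p per list (no list had a called gene), and the 5 genes most like alas2, hbae3 and epor, with all embryos and without mutant 6. Other genes were named after their values were seen: urod, fech, stat5.1, gfi1b, epb41b, tfr1a, cahz, aplnra, lyz, cebpb, lect2l, csf1ra and mpeg1. RefSeq (GRCz12tu) matched 9 members by symbol and 1 by synonym, and served for names and for which genes lie together, with no coordinates given.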

Additional observations from a re-analysis of the deposited data

Results flagged for a closer look

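An embryo is given here when the gap between it and its nearest neighbour took up most of the range of its group, by Dixon's test at the 95% level. Of the 28 groups of values tested, 6 were flagged, and chance flags about 1 in 20. Mutant 6 was low among the 6 mutants for alas2 (4.17 log2 CPM), drl (2.97 log2 CPM), epor (0.89 log2 CPM) and hbbe2 (2.89 log2 CPM). It was also low for alas2 per 1000 TPM of globin, at 2.65. Sibling 7 was low among the 5 siblings for the share of the 5 globin rows from the cluster of hbae1, hbbe1.1 and hbae3, at 77.2%. The values come from the same embryos and are not independent of each other.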

How the results depend on the processing

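The count of called genes was 0 in most settings, and it was 44 with DESeq2, 2 with limma-voom, 2 at an adjusted p of 0.1 and between 0 and 24 with 1 embryo left out (24 without mutant 6, 1 without sibling 7). None of the 10 erythroid genes was called under any setting tried. Their fold changes were near 0, so the sign turned easily. With limma-voom the log2 fold change was −0.22 for alas2, −0.12 for hbae1 and −0.087 for hbbe1.1. On log2 TPM it was −0.18 and −0.19 for alas2 (pseudocounts of 1 and 0.1), −0.091 with both for hbae1 and −0.059 with both for hbbe1.1. With the replicate number as a block it was 0.60 for slc4a1a, 0.52 for gata1a, 0.45 for alas2, 0.37 for hbbe1.1, 0.31 for hbae1, 0.28 for hbbe3, 0.24 for epor, 0.19 for hbae3, 0.10 for hbbe2 and −0.060 for drl, and the block called 0 genes. Only the numbers 3, 4 and 7 occur in both groups, so the values with the block rest on those embryos alone and leave out mutant 6. The labels do not say whether a shared number pairs 2 embryos. The deviations of the embryos with the same number correlated at −0.31, −0.19 and −0.14, and pairing was not tested. With 1 embryo left out the fold change ran from −0.20 to 0.24 for alas2, −0.27 to 0.073 for drl, −0.24 to 0.084 for epor, −0.11 to 0.26 for gata1a, −0.21 to 0.18 for hbae1, −0.27 to 0.11 for hbae3, −0.19 to 0.21 for hbbe1.1, −0.25 to 0.028 for hbbe2, −0.24 to 0.14 for hbbe3 and −0.16 to 0.28 for slc4a1a. Without the 2 farthest embryos, 4 of 15 pairs passed at an adjusted permutation p under 0.05. Among the pairs that did not were alas2 with hbae3 (r = 0.67), epor with hbae3 (0.53) and alas2 with epor (0.51). The ratio of summed globin in mutants over siblings was 1.01, and 0.89 to 1.14 with 1 embryo left out, the extremes coming without mutant 4 and without mutant 6. The cause of these changes was not tested.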

Other observations

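Further globin rows fall outside the names used to choose the members and were looked up after the data were examined, through RefSeq synonyms. The row si:busm1-118j2.5, a synonym of hbbe1.1, had 604 TPM in mutant 6 and 1373 to 2633 TPM in the other mutants, against 1236 to 1792 TPM in siblings. The row zgc:163057, a synonym of hbae4, had 6.66 TPM in mutant 6 and 12.6 to 20.9 TPM in the other mutants, against 10.6 to 17.8 TPM in siblings. Both followed hbae3 over the 11 embryos, with r of 0.97 and 0.93. The adult α-globin gene hbaa1 had 5 to 22 counts in mutants and 2 to 19 counts in siblings, far below the embryonic genes. The adult rows zgc:92880 and si:ch211-5k11.6, synonyms of hbba2 and hbaa2, had at most 10 counts in any embryo.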
